A study of Mus musculus with 3 samples.

Results

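Transcripts of 10 genes of the ETS family of transcription factors (Ets1, Ets2, Fli1, Elf1, Elf2, Elf4, Gabpa, Elk4, Etv6 and Spi1) were followed in mouse T cells. The genes were chosen by name as part of a family, with earlier results of these data known. Each matched 1 gene identifier, and together they are 10 of the 50600 genes in the tables. The study analysed here is a single group of 3 RNA-seq libraries from primary T cells of C57BL/6NJ mice, numbered as biological replicates 2, 3 and 4. The labels give the age and developmental stage as unknown and the sex as not collected, and name a differentiation protocol for CD4+ T cells, while the file headers carry the words Th0 and activated with a time of 0 h. The libraries share a donor identifier, and the labels do not give the number of animals. Replicate 2 had Xist, made from the inactive X chromosome, at 151 TPM and the Y-linked Ddx3y at 0.248 TPM, while replicates 3 and 4 had Xist at 0.221 and 0.399 TPM and Ddx3y at 80.0 and 72.3 TPM. Replicate 2 therefore did not come from the animal or animals of the other libraries, whereas whether replicates 3 and 4 shared an animal is not known. All p-values reflect only how these 3 libraries vary among themselves, a spread that mixes sex, animal and technical differences that cannot be told apart. With no second group, the data show which family members the cells transcribed, their order, and how far each differed among libraries.

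ETS proteins share a DNA-binding domain, the ETS domain, that contacts a GGAA core in DNA, and differ in their flanking regions and partners. In T cells, ETS-1 acts with RUNX proteins at T cell receptor enhancers, GABP drives housekeeping and interleukin 7 receptor genes, and ternary complex factors such as ELK4 work with the serum response factor downstream of MAP kinases. PU.1, encoded by Spi1, is a regulator of myeloid and B cells that is shut off as thymocytes commit to the T lineage.

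The libraries held 47432940, 59698913 and 28340521 gene counts in replicates 2, 3 and 4, so that replicate 4 had the least counting precision. Levels are in TPM, counts divided by gene length and scaled to 1000000 per library. A gene is called detected here when every library gave it at least 1 TPM. The markers of the labelled cell type were present: 9 of 9 T cell markers were detected, and Cd4 stood at 1044 ± 24.6 TPM (SD, n = 3). Of 62 markers of other cell types, 15 were detected and 15 had 0 counts in all libraries. Beside these counts, 46.1% of all protein-coding genes were detected. Of the CD8 lineage pair, Cd8b1 was detected at 36.5, 33.9 and 30.5 TPM in replicates 2, 3 and 4, a mean above that of any of the 62, while Cd8a was at 0.534 ± 0.182 TPM (SD, n = 3).

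Of the 10 genes 9 were detected, and Spi1 was below 1 TPM in each library. Among all genes 23.4% were detected and among protein-coding genes 46.1%. Ets1 was the highest member at 859 ± 76.5 TPM (SD, n = 3), followed by Elf1 at 270 ± 10.3 TPM, Elf4 at 232 ± 10.8 TPM, Elk4 at 131 ± 4.13 TPM and Fli1 at 99.5 ± 6.30 TPM. Ets2, Gabpa and Elf2 lay close together at 52.3 ± 4.33, 48.0 ± 0.284 and 47.8 ± 0.430 TPM, Etv6 stood at 19.3 ± 1.02 TPM and Spi1 at 0.629 ± 0.383 TPM. The median protein-coding gene among those detected stood at 33.3 ± 0.824 TPM, so 8 of the 10 genes lay above it.

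**Figure D1:**
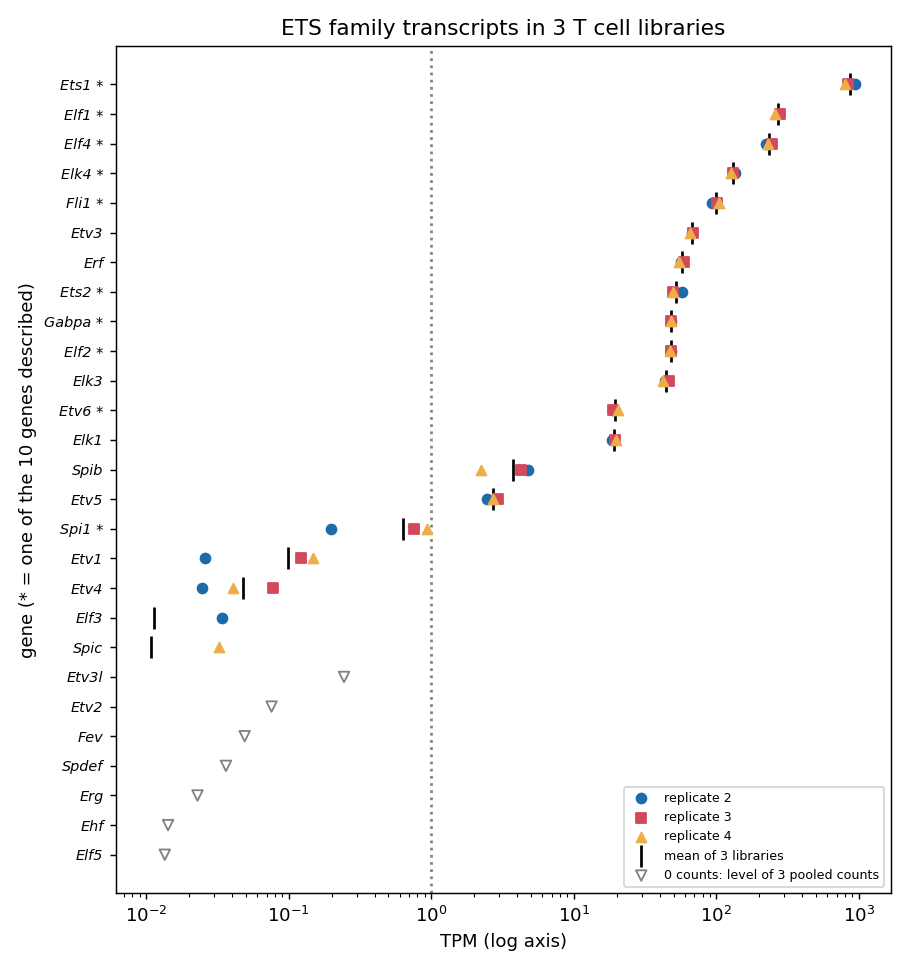
Level of each of 27 ETS family genes in TPM (log axis), 1 point per library (circle, replicate 2; square, replicate 3; triangle, replicate 4), with a bar at the mean of 3 libraries and a dotted line at 1 TPM. Genes with 0 counts are open triangles at the level of 3 pooled counts, and Ets1 lies to the right of all others in every library, from 792 to 942 TPM.

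Ets1 and Ets2 are close paralogs. Ets1 (ENSMUSG00000032035.15, mm10 chromosome 9, 32636221 to 32757820, plus strand), needed for the survival and function of T cells, had 942, 841 and 792 TPM in replicates 2, 3 and 4. It was higher than 98.8% of the detected protein-coding genes. Ets2 (ENSMUSG00000022895.14, chromosome 16, 95702075 to 95721051, plus strand) had 57.3, 49.8 and 49.9 TPM. Ets1 was 16.4 ± 0.497 times as high as Ets2 (SD, n = 3), with ratios between 15.9 and 16.9, and the 2 genes were highest in the same library, replicate 2. The difference was 4.03 ± 0.04 on the log2(TPM + 0.1) scale and was positive in 3 of 3 libraries; flipping the signs in every way (two-sided exact permutation) gave p = 0.25, the smallest p that 3 libraries allow.

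Fli1 (ENSMUSG00000016087.13, chromosome 9, 32422204 to 32542861, minus strand) encodes a factor of blood stem cells, megakaryocytes and lymphocytes and lies beside Ets1. The 2 genes point away from each other across 93.4 kb, with 0 protein-coding genes between. Fli1 had 92.7, 101 and 105 TPM in replicates 2, 3 and 4. Its order over the libraries was the reverse of that of Ets1, and the ratio of Ets1 to Fli1 was 10.2, 8.34 and 7.54. A similar pair on chromosome 16, Erg and Ets2, also divergent and 115 kb apart with 0 protein-coding genes between, had a different outcome for the Fli1 paralog. Erg, a factor of blood stem cells and endothelium, had 0 counts in all libraries, and Fli1 was at least 4318-fold higher per base when Erg is set at 3 pooled counts, a floor that covers counting error only.

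Of the ELF genes, Elf1 and Elf4 formed the next tier. Elf1 (ENSMUSG00000036461.15, chromosome 14, 79481194 to 79582476, plus strand), which encodes an activator of lymphocyte receptor and cytokine genes, had 274, 277 and 258 TPM in replicates 2, 3 and 4. Elf4 (ENSMUSG00000031103.12, chromosome X, 48411046 to 48463132, minus strand), known for restraining T cell proliferation, had 222, 244 and 231 TPM. Elf1 was above Elf4 in each library by a small margin, 1.16 ± 0.0618 times (SD, n = 3), or 0.22 ± 0.08 on the log2 scale (exact two-sided sign-flip p = 0.25). Elf2 (ENSMUSG00000037174.18, chromosome 3, 51252720 to 51340663, minus strand) had 47.7, 48.2 and 47.4 TPM, and Elf1 was 5.64 ± 0.172 times as high. The epithelial ELF genes Elf3 and Elf5 and their relative Ehf had 1, 0 and 0 counts over all libraries. Elf5 and Ehf are also a divergent pair, 108 kb apart on chromosome 2.

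Elf4 and Elk1 were the family genes on the X chromosome. Elf4 was lowest in replicate 2, the library with Xist and almost no Ddx3y, and so was Elk1, at 18.6, 19.4 and 19.7 TPM in replicates 2, 3 and 4. Neither passed edgeR's goodness of fit test, which asks whether a gene varies more than genes of its abundance (both adjusted p = 1.00), and the part of sex in these small differences was not tested.

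Gabpa (ENSMUSG00000008976.16, chromosome 16, 84834925 to 84863779, plus strand) encodes the DNA-binding subunit of GABP, which acts as a complex with a beta subunit. Its levels of 47.7, 48.1 and 48.2 TPM were on the TPM scale the tightest of the 10 genes, with a coefficient of variation of 0.591%, below the 1.76% that counting alone would give on average per library. The beta subunit genes Gabpb1 and Gabpb2 stood at 19.7 ± 0.649 and 65.3 ± 2.89 TPM (SD, n = 3). Gabpb2 thus exceeded Gabpa by 1.36 ± 0.0679 times, and Gabpb1 was lower than Gabpa in 3 of 3 libraries. Beta transcripts summed to 1.85, 1.78 and 1.68 times the Gabpa level in replicates 2, 3 and 4, a mean of 1.77 ± 0.0827 (exact two-sided sign-flip p = 0.25). The excess was 2.80 ± 0.131 times when the longest annotated transcript gave the gene lengths, because the summed exons of Gabpb1 and Gabpb2 are much longer than any 1 of their transcripts. Of Gabpa's summed exon length 6.98% overlaps the gene Atp5j on the other strand, and counting used strand. Of the 10 genes Elk4 had a same-strand overlap, 1.62% of its length with Gm29103, which had 0 counts.

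RefSeq promoters, 250 bases before to 50 bases after a start site, were given for 7 of the 10 genes with 12 start sites in all. They were searched on both strands for CCGGAA, the core GGAA with the 2 preceding bases that many ETS proteins prefer. It occurred in 2 of the 12, 1 of Gabpa and 1 of 3 of Elk4, and in 14.9% of all 32851 promoters in the table. The 2 sequences, GRCm38.p6 and read 5′ to 3′ on the gene's strand with the match in capitals, are shown because they are ETS genes whose own promoters carry the family's motif. Gabpa (chr16:84834874-84835173, plus strand) has the match on the opposite strand, starting 92 bases before the start site, and Elk4 (chr1:132007370-132007669, plus strand) has it 68 bases before.
Gabpa promoter: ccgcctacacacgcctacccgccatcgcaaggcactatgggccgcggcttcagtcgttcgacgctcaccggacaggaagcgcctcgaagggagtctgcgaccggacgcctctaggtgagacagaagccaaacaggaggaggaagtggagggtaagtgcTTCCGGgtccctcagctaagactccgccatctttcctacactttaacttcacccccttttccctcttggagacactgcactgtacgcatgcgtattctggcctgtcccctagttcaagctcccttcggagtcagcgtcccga
Elk4 promoter: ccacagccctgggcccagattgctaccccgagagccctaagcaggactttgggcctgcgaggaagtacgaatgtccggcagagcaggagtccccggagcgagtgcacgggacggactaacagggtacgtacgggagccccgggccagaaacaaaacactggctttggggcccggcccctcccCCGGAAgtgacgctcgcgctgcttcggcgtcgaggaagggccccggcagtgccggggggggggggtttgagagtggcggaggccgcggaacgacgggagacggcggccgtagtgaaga
A match describes these letters and not a bound site. Gabpa and Elk4 were the only 2 of the 22 family genes with a promoter in the table to hold it. Among protein-coding genes with a promoter in the table, 21.6% held it in at least 1. These counts do not set the family apart from other genes. Of the GABP partners, 1 of 2 promoters of Gabpb1 and the promoter of Gabpb2 held it, 72 and 50 bases before the start. Ets1, Fli1 and Spi1 were not searched.

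Known nuclear targets of GABP that serve mitochondria were all transcribed. Each of the 7 was detected, beside 46.1% of all protein-coding genes. By edgeR's goodness of fit 0 of 7 varied among libraries, and 0 had an unadjusted p under 0.05. Among all 13498 genes tested 0.533% were called and 4.10% had an unadjusted p under 0.05. At these shares 0 of 7 does not set the targets apart from other genes. Their median log2 range over the libraries was 0.08, against 0.12 over tested genes that averaged at least 500 counts, as 6 of the 7 did. That comparison is not matched by count, since the median range of tested genes was 0.21 near 602 counts and 0.09 near 9750 counts. Atp5b, which encodes the beta chain of ATP synthase, stood at 555 ± 9.36 TPM (SD, n = 3), Cox4i1, of cytochrome oxidase, at 465 ± 12.4 TPM, Sdhb, of succinate dehydrogenase, at 135 ± 0.305 TPM, and Cox5b, also of cytochrome oxidase, at 97.4 ± 1.37 TPM.

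Elk4 (ENSMUSG00000026436.15, chromosome 1, 132007607 to 132032612, plus strand) is the ternary complex factor, also called SAP-1, with a role in thymocyte selection. It had 135, 131 and 127 TPM in replicates 2, 3 and 4. Its relatives Elk3 and Elk1 stood at 44.1 ± 2.18 and 19.2 ± 0.586 TPM (SD, n = 3), so Elk4 was 2.98 ± 0.138 and 6.82 ± 0.423 times as high. Srf, the DNA-binding partner of these factors, was at 150 ± 1.22 TPM, 1.14 ± 0.0415 times Elk4. Mapk3, which encodes a kinase that phosphorylates them, was at 70.2 ± 1.80 TPM. The 3 genes of the ternary complex class held their order in every library.

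Among the repressors, Etv6 (ENSMUSG00000030199.16, chromosome 6, 134035700 to 134270158, plus strand), which encodes the polymer-forming repressor TEL, had 18.7, 18.7 and 20.5 TPM in replicates 2, 3 and 4. The repressor genes Etv3 and Erf, which belong to the family but not to the 10 genes, stood higher at 67.2 ± 1.50 and 56.9 ± 2.17 TPM (SD, n = 3). Their sum was 6.45 ± 0.492 times the level of Etv6. Etv6 was the lowest of the 9 genes above 1 TPM, below the median of detected protein-coding genes, and was highest in replicate 4.

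Over the whole family of 27 genes listed, 15 were detected and 7 had 0 counts, beside 46.1% of all protein-coding genes detected. Of the 17 outside the 10 genes, 6 were detected, so detection and share of the 10 depend on which genes were chosen. Family transcripts summed to 2031, 1960 and 1868 TPM in replicates 2, 3 and 4, and the 10 genes held 90.1 ± 0.381% of that sum (SD, n = 3). Ets1 alone held 43.9 ± 2.17%, Elf1 13.8 ± 0.334% and Elf4 11.9 ± 0.846%. In the PEA3 class Etv1 and Etv4 were nearly silent at 0.0991 ± 0.0649 and 0.0474 ± 0.0272 TPM, from 21 and 6 pooled counts. Etv5 was detected, at a low 2.70 ± 0.234 TPM. Fev, Etv2 and Spdef, factors of neurons, early endothelium and secretory epithelium, had 0 counts, where 3 pooled counts would be 0.0491, 0.0758 and 0.0363 TPM.

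Spi1 (ENSMUSG00000002111.8, chromosome 2, 91082390 to 91115756, plus strand) had 7, 34 and 20 counts in replicates 2, 3 and 4, or 0.197, 0.758 and 0.931 TPM. The 95% exact Poisson interval of the replicate 2 level, 0.0793 to 0.406 TPM, lay below those of replicate 3, 0.525 to 1.06 TPM, and of replicate 4, 0.569 to 1.44 TPM. Those intervals cover counting error only. edgeR's goodness of fit gave an unadjusted p of 0.0195 and an adjusted p of 0.862, and over the alternatives the adjusted p ran from 0.0183 under a common dispersion to 1.00. The mean without replicate 2 was 0.844 TPM. In bulk RNA, few cells with much Spi1 and many cells with little cannot be told apart.

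Spib, the PU.1 relative of B cells and plasmacytoid dendritic cells, was higher than Spi1 in every library and ran in the opposite order. It had 4.77, 4.23 and 2.23 TPM in replicates 2, 3 and 4, and its ratio to Spi1 was 24.2, 5.58 and 2.40. Over pooled counts, 433 for Spib and 61 for Spi1, the ratio per base was 6.67 with a 95% exact binomial interval from 5.09 to 8.87. That interval covers counting error only, and the ratios of replicates 2 and 4 lay outside it. The third member of the class, Spic, had 1 count. Spib did not pass the goodness of fit test (edgeR, adjusted p = 0.812), except under a common dispersion (adjusted p = 0.0447), and over the alternatives its adjusted p reached 1.00.

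Markers of B cells and myeloid cells were present at low levels beside these genes. Of 10 B cell markers 8 were detected, and their sum was 55.5, 63.6 and 43.2 TPM in replicates 2, 3 and 4, lowest in replicate 4 as Spib was. Of 10 macrophage and monocyte markers 3 passed, Cd68, Lyz2 and Ly6c2, and their sum was 18.4, 19.7 and 20.7 TPM. Cd68, most of that sum, had 13.4, 13.0 and 13.6 TPM, Lyz2 was highest in replicate 3, and Ly6c2 was highest in replicate 4, so the markers had no common order. Cd14 and Fcgr1 were at 0 counts, and Csf1r, the receptor for the macrophage growth factor, had 6, 39 and 13 counts, lowest in replicate 2 as Spi1 was. Of 12 genes that depend on PU.1 in myeloid or B cells, 4 were detected, 1 of them Spib itself. They were led by Csf2ra at 15.9 ± 3.05 TPM and Tyrobp at 4.37 ± 2.08 TPM (SD, n = 3). Set beside these counts and those of the markers, 46.1% of all protein-coding genes were detected. The part of other cells in the Spi1 and Spib levels was not tested.

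**Figure D2:**
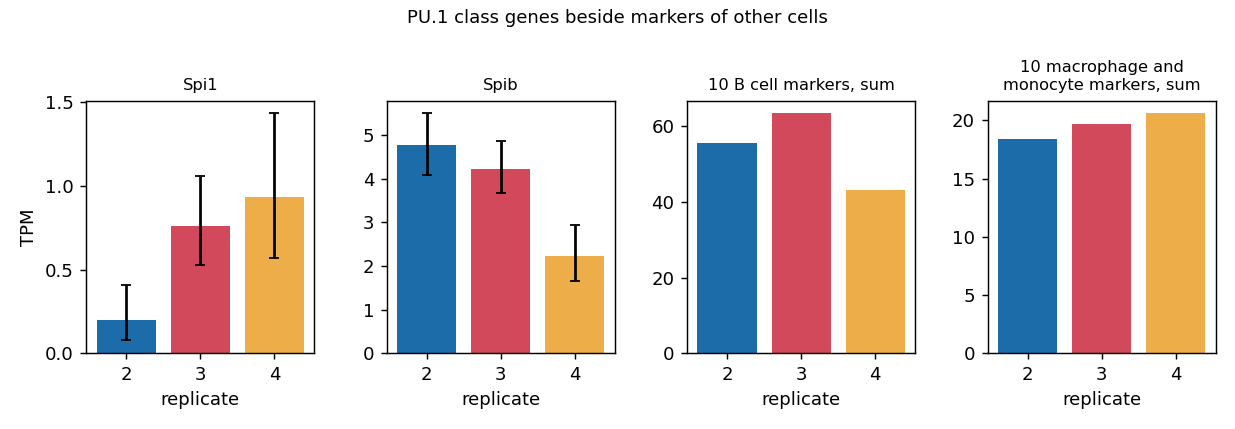
Levels in TPM by replicate of Spi1 and Spib, with 95% exact Poisson intervals as error bars, and summed TPM of 10 B cell and 10 macrophage and monocyte markers, each panel with its own axis from 0. Spi1 is lowest in replicate 2 at 0.197 TPM, while Spib and the B cell sum are lowest in replicate 4.

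The order of the 10 genes was nearly the same in every library. Of 45 pairs, 44 kept 1 sign of the log2(TPM + 0.1) difference over the 3 libraries. Mean levels ran from 0.629 to 859 TPM, wide beside the spread of most of the genes among libraries, so few pairs could change sign. Pairs of genes outside the 10 were not compared, so the count of 44 does not set the family apart. Each of the 44 pairs had a sign-flip p of 0.25 (exact, two-sided) and an adjusted p of 0.256 by the Benjamini-Hochberg method over the 45 pairs, so that no pair could pass 0.05. The exception was Gabpa and Elf2, neighbours whose ranges overlapped, with a difference of 0.01 ± 0.02 (SD, n = 3). Ets2 lay above Gabpa by 0.12 ± 0.12 and above Elf2 by 0.13 ± 0.12, margins close to their SD. The other neighbours were farther apart, with Elk4 over Fli1 by 0.40 ± 0.14, Fli1 over Ets2 by 0.93 ± 0.21 and Elf4 over Elk4 by 0.82 ± 0.10.

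The place of Elf2 depended on the gene length used. The deposited length of Elf2, 9563 bases, joins all annotated exons, while its longest transcript has 5919 bases. With longest transcripts Elf2 stood at 61.4 ± 0.551 TPM (SD, n = 3), above Ets2 at 50.4 ± 4.16 and Gabpa at 43.5 ± 0.260 TPM, in 3 of 3 libraries. These 2 were the only pairs of the 45 whose mean difference changed sign. Ets1, with 8476 joined bases against 5080 in its longest transcript, rose to 1139 ± 101 TPM.

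**Figure D3:**
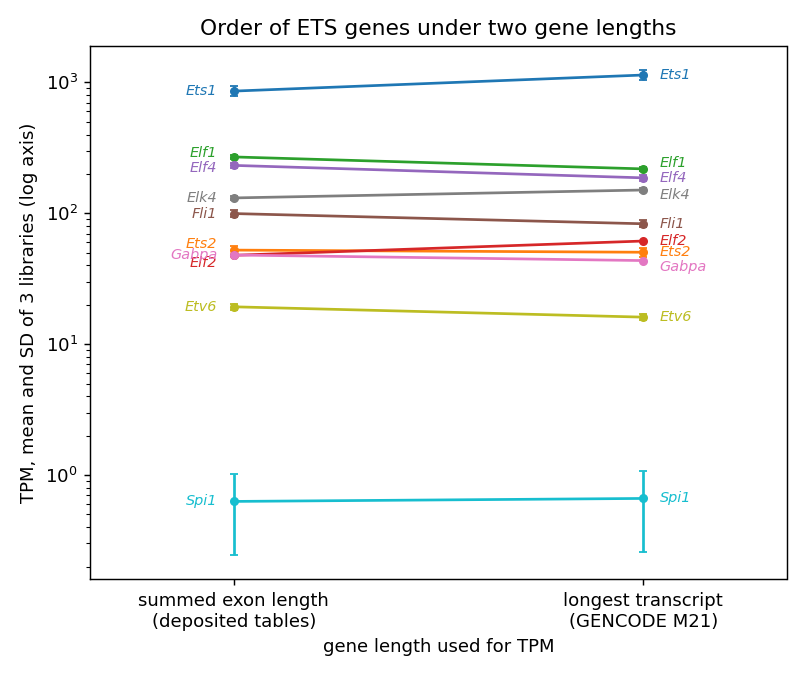
Mean TPM of each of the 10 genes (log axis, bars are SD over 3 libraries) with the summed exon length of the deposited tables at left and the longest GENCODE M21 transcript at right. Lines cross only for Elf2, which moves from 47.8 to 61.4 TPM past Gabpa and Ets2.

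Among the libraries no gene of the 10 passed the test for variation. edgeR's goodness of fit called 0 of 10 at an adjusted p of 0.05, with 1 of 10 at an unadjusted p under 0.05, Spi1, and DESeq2 size factors in place of TMM also gave 0. Over all 13498 genes tested 0.533% were called and 4.10% had an unadjusted p under 0.05. The median range of log2 CPM (counts per library scaled by TMM) over the libraries was 0.17 for the 10 genes, against 0.19 for all genes tested. The 9 genes that averaged at least 500 counts had a median of 0.15, against 0.12 for the 8085 genes at that depth, of which 41 were called.

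On the same log2 CPM scale the genes had different ranges. Elk4, Elf2, Gabpa and Elf1 had log2 ranges of 0.04, 0.04, 0.07 and 0.07, below the median of genes of like count. Ets1 at 0.20, Ets2 at 0.18, Elf4 at 0.15 and Etv6 at 0.19 were above that median, and Fli1 at 0.23 and Spi1 at 2.00 lay above the 90th percentile of genes of like count, 0.20 and 1.78. On that scale replicate 2 was the lowest library for 6 of the 10 genes and the highest for 3, Ets1, Ets2 and Elk4, while in TPM Elf2 was lowest in replicate 4.

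**Figure D4:**
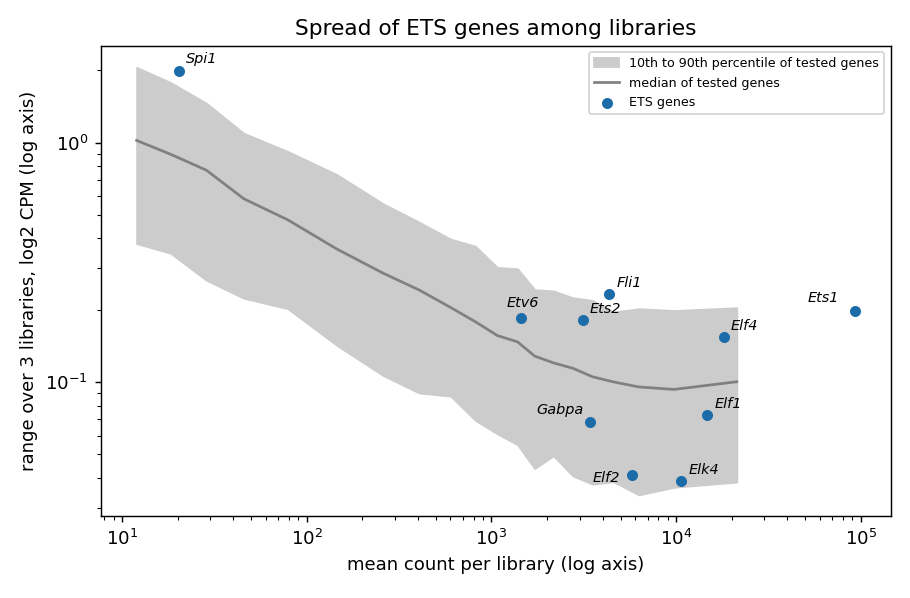
Range of log2 CPM over 3 libraries against mean count (both axes log), with points for the 10 ETS genes, a line for the median and a band for the 10th to 90th percentile of tested genes in 20 bins of count. Fli1 and Spi1 lie above the band, and Elf2 and Elk4 lie near its lower edge.

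Partners of the ETS factors were all transcribed. The 16 listed cofactors and the 9 kinases and phosphatases were each detected, beside 46.1% of all protein-coding genes. By edgeR's goodness of fit 0 of these 25 varied, with 2 at an unadjusted p under 0.05, beside 0.533% called and 4.10% under 0.05 among all genes tested. These counts of varying genes do not set the partners apart from other genes. By that test the adjusted p of Runx3 was 0.256, and 0.0447 at its lowest over the alternatives. The corepressor gene Ncor1 led the cofactors at 183 ± 6.66 TPM (SD, n = 3), followed by the SRF coactivator gene Mrtfa at 177 ± 3.42 TPM, Srf and Cbfb, the partner subunit of RUNX proteins, at 143 ± 8.68 TPM. Mapk14, which encodes the p38α kinase, was at 188 ± 5.08 TPM.

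Of 14 genes described as ETS targets in T cells or other cells, 13 were detected and 2 varied by the goodness of fit test, beside 46.1% of protein-coding genes detected and 0.533% of tested genes called. The T cell receptor constant gene Trac was at 3374 ± 63.1 TPM (SD, n = 3) and the receptor kinase gene Lck at 1715 ± 94.0 TPM. Il7r, the interleukin 7 receptor gene that GABP and ETS-1 are known to regulate, had 875, 607 and 556 TPM in replicates 2, 3 and 4 (edgeR's goodness of fit, adjusted p = 0.0449). That call was lost under a common dispersion (0.0781), with no count filter (0.0546), with a mean count of 50 or more (0.0612), and without replicate 2, 3 or 4 (1.00, 0.178 and 0.393). Fos, a classical target of ternary complex factors, had 30.8, 27.2 and 122 TPM (adjusted p = 2.315e-48 by the same test, and 1.00 without replicate 4). Besides Il7r and Fos, only Il2ra and Bcl2 of the 14 had an unadjusted p under 0.05 by edgeR's goodness of fit, 0.000713 and 0.0226. Among all genes tested 4.10% did. By that test the adjusted p of Il2ra was 0.115, and 0.00467 at its lowest over the alternatives, and that of Bcl2 was 0.921. Klf4, a target of ELF4 in CD8 T cells, stayed below 1 TPM at 0.880 ± 0.115, and Klf2, in the same family, was at 649 ± 28.0 TPM.

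Across protein-coding genes, detection in these T cells was more frequent where a promoter held CCGGAA. Of 3550 genes with CCGGAA in a promoter 80.1% were detected, against 40.3% of 12919 genes without it. A gene counted as having the motif if any of its promoters held it, and its GC content was that of its promoter highest in GC. The number of promoters per gene was not balanced. CCGGAA itself holds a CG pair. How often CG pairs occur in a promoter was not balanced either, and no other sequence of 6 bases was searched for comparison. Genes with the motif had a median GC content of 61.7%, against 56.3% without. The shares were therefore also taken within 4 groups of near equal size by GC content. From the lowest to the highest group 53.3%, 76.6%, 84.4% and 83.8% of genes with the motif were detected, against 13.0%, 37.4%, 57.8% and 62.6% without. GC content still differed inside the lowest group, with medians of 46.7% in its 246 genes with the motif and 42.7% in its 3915 without. The bare GGAA core was in 96.3% of these genes' promoters, with 49.0% detected against 45.6% without it. Genes are not independent replicates, and these shares are a description of the set with no test.

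**Figure D5:**
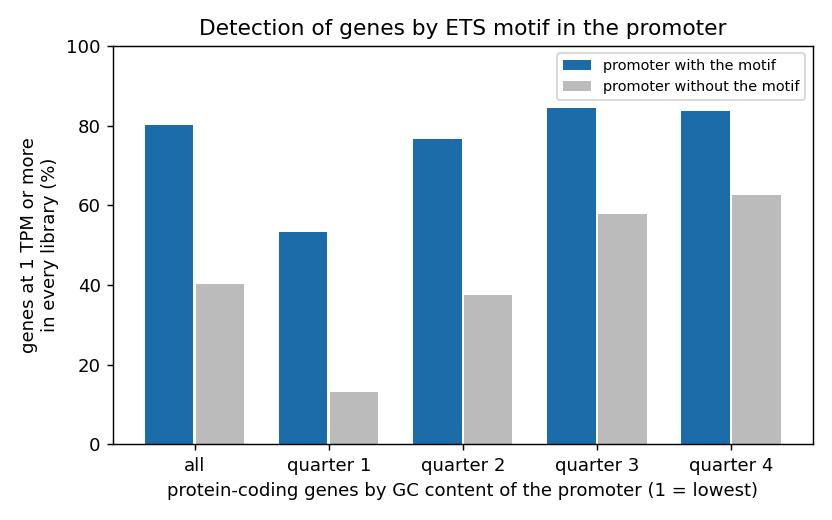
Percent of protein-coding genes detected (1 TPM or above in each library), for genes with and without the 6-base ETS motif in a RefSeq promoter, over all genes and within 4 groups by promoter GC content (1 is the lowest). Bars with the motif are taller in each group, and in the first group, 53.3% against 13.0%, median GC content also differs, 46.7% against 42.7%.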

How the data were processed

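RNA-seq libraries of mouse T cells were compared by gene. Per the file headers, the authors deposited raw counts of read pairs per gene from featureCounts 1.4.6-p4 over exons of GENCODE vM13 (mm10), with both ends aligned and reverse strand counting. No option for reads with several alignments was set, and the aligner's version is not given in the sources used here. Depth was 28340521 to 59698913 counts. Symbols matched 50376 of 50600 identifiers, and biotypes came from GENCODE M21. TPM were computed here from counts and the deposited summed exon lengths. Variation was tested over the 13498 genes that averaged 10 counts or more by edgeR 4.0.16 (R 4.3.3) goodness of fit to 1 common mean per gene under a negative binomial model, using TMM factors, trended dispersion and Benjamini-Hochberg adjustment at 0.05, after a test on simulated data. Log2 ranges used a prior count of 2. Gene pairs used exact two-sided sign-flip tests. Intervals were 95% exact, floors 3 counts. DESeq2 1.42.0 gave the other size factors. Other steps ran in Python 3.11.15 with scipy 1.17.1, and figures in matplotlib 3.10.9.

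Named in the text are the 10 ETS genes, other family genes and, of each list of partners, regulators, targets and markers, the 4 of highest mean TPM, those below 1 TPM and those called. Gabpb1 and Gabpb2 were named as partners of Gabpa. Xist, Ddx3y, Cd4, Cd8a, Cd8b1, Cd68, Lyz2, Ly6c2, Runx3, Il2ra, Bcl2 and the 2 printed promoters were chosen after their values were seen. The genes and lists were chosen with earlier results of these data known. The motif search was added after seeing the data. Some listed genes are not reported here.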

Additional observations from a re-analysis of the deposited data

How the results depend on the processing

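The count of 9 ETS genes at 1 TPM or more in every library was the same at 0.5 and 5 TPM, with protein-coding genes only, with longest transcripts, without genes under 200 bases (chosen after seeing the data) and without each replicate, and 44 or 45 of 45 pairs kept 1 sign under every alternative run. The 0 of 10 varying genes became 1, Spi1, under a common dispersion, where calls over all genes went from 72 to 312, and all calls were 35 to 46 without a replicate. The share of family TPM held by Ets1 was 53.2% with longest transcripts, 48.7% of the 10 genes alone and 54.4% in CPM without length correction (chosen after seeing the data), and 42.7 to 44.6% without a replicate. GABP beta over alpha was 2.80 with longest transcripts and 1.73 to 1.81 without a replicate. With longest transcripts the log2 difference of Ets2 over Elf2 was -0.29 and of Gabpa over Elf2 -0.49, and the latter ran from -0.0028 to 0.0122 without a replicate, negative without replicate 4. These shifts follow from the lengths, totals and libraries exchanged, and the cause of the change under a common dispersion was not tested. No paired analysis was possible because there is 1 group. Depth limits Spi1, Spic, Etv1, Etv4 and Elf3, whose counts were 61 or fewer over all libraries.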
